A study of Mus musculus with 16 samples.

Results

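Pparg encodes PPARγ, a ligand-activated nuclear receptor needed to form fat cells, and the one through which the antidiabetic drug rosiglitazone acts. The peaks described here are those whose centre lies in a 230 kb window on mouse chromosome 6, chr6:115260000-115490000 in build mm9, in lists of PPARγ and C/EBPα binding sites. The window held 21 of the 30588 PPARγ peaks and 15 of the 30519 C/EBPα peaks, 36 of 61107 in all. They are named P1 to P21 and C1 to C15 here, in order along the chromosome. The rule used positions and no measured value.

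The values come from chromatin immunoprecipitation followed by sequencing (ChIP-seq) in 3T3-L1 adipocytes, cells of a mouse fibroblast line that become fat cells in culture. At day 7 of differentiation the cultures had received either 1 µM rosiglitazone or the vehicle, 0.1% DMSO, for 1 h. All cultures had been differentiated with dexamethasone, 3-isobutyl-1-methylxanthine and insulin. The labels give 16 samples in 12 groups, and the lists carry values for 4 antibodies, with 1 column per treatment each: PPARγ, C/EBPα, MED1 and CBP. Samples of RNA polymerase II and of input were not used here. Peak lists hold no expression values, so the cell type was not checked against its markers.

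PPARγ binds DNA as a partner of the receptor RXR, at direct repeats of a hexamer spaced by 1 base. C/EBPα is a leucine zipper factor of the fat cell programme, and in adipocytes it and PPARγ are known to maintain each other's expression. MED1 is the Mediator subunit that contacts liganded nuclear receptors. CBP acetylates histones and is recruited to enhancers. Pparg is transcribed from alternative promoters. One lies far downstream and gives PPARγ2, the isoform typical of fat cells, and those upstream give PPARγ1 transcripts.

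The promoters are printed because Pparg encodes one of the measured proteins, and because they show how unlike its starts are. RefSeq lists 3 starts of Pparg in build GRCm38.p6. The 250 bases before each, on the plus strand, follow from 5′ to 3′, with matches to the searched motifs in capitals. They lie at chr6:115360894-115361143, chr6:115362099-115362348 and chr6:115421816-115422065, so the last starts 60922 bases after the first.
Pparg start 1: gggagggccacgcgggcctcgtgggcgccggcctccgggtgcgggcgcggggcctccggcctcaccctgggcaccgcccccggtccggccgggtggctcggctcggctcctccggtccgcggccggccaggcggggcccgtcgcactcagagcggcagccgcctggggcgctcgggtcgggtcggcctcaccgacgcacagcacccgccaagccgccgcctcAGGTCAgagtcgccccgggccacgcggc
Pparg start 2: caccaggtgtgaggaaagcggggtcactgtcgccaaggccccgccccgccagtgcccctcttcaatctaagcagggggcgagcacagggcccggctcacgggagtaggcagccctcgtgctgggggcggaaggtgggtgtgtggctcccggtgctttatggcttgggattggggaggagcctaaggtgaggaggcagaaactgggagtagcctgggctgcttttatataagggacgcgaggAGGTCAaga
Pparg start 3: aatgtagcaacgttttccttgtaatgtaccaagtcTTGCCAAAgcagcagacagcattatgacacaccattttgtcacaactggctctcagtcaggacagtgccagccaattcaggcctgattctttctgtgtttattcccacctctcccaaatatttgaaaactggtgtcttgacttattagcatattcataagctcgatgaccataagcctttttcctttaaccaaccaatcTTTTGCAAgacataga

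The upstream starts are rich in G and C, with 82.4% at start 1 and 63.6% at start 2, and start 3 has 40.8%. The median over 32851 mouse promoters of the same length was 52.4%. Start 1 has 38 CpG dinucleotides, start 2 has 12 and start 3 has 2. Both strands were searched for AGGTCA, for that hexamer repeated after 1 base, for AAAGGTCA, for TTGCNNAA and for TTGCGCAA. AAAGGTCA contains AGGTCA, and TTGCGCAA is one form of TTGCNNAA. AGGTCA, the hexamer of the PPARγ element, occurs once before start 1 and once before start 2, and 14.0% of all promoters hold it. TTGCNNAA, a C/EBP type sequence, occurs at 2 places before start 3, as TTGCCAAA and as TTTTGCAA read on the other strand, and 9.56% of all promoters hold it. The repeat of the hexamer was in 0.0335% of promoters, AAAGGTCA in 1.34% and TTGCGCAA in 0.164%, and these windows of Pparg matched none of these 3 motifs. These letters describe sequence and no bound site. The peaks are in mm9 and the promoters in GRCm38.p6, so no peak was placed on a promoter, exon or intron.

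Values are normalised tag signals as deposited, called units here, where a tag is 1 mapped read. They are whole multiples of a step per column, so tags could be recovered. 1 tag was worth 0.831 units of PPARγ in rosiglitazone and 0.879 in DMSO, 1.27 and 2.21 units of C/EBPα, 7.65 and 3.49 units of MED1, and 6.06 and 2.21 units of CBP. If units are per 10 M tags, the depths were 12.03 M and 11.4 M tags for PPARγ, 7.85 M and 4.53 M for C/EBPα, 1.31 M and 2.86 M for MED1, and 1.65 M and 4.52 M for CBP. In each pair the rosiglitazone value stands before the DMSO value. A ratio is rosiglitazone over DMSO, and the range after it is its exact 95% interval (Clopper-Pearson), which covers counting error only. With 1 column per treatment there is no replicate check and no p-value. A P peak and a C peak that overlap share reads and are not independent.

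The window was dense in peaks. Among tiles of 230 kb along the genome that hold a PPARγ peak, 42 of 6634 (0.633%) held 21 or more, and the median was 3. For C/EBPα, 183 of 6680 tiles (2.74%) held 15 or more, and the median was also 3. Most of the window's peaks were of ordinary height for their lists. The median height, the mean of both treatments, was 11.5 units at the 21 PPARγ peaks and 11.6 over the whole list. At the 15 C/EBPα peaks it was 16.3 units.

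Peaks of both factors coincided at 5 places, which is 23.8% of the PPARγ peaks and 33.3% of the C/EBPα peaks. Neighbouring peaks are not independent draws, so no interval is given for these shares. The shares over the whole lists were 36.1% and 36.2%. The coincident pairs were P6 with C5, P11 with C9, P12 with C10, P18 with C14 and P19 with C15, with centres 9, 42, 78, 27 and 23 bp apart. Of the 4 highest C/EBPα peaks by score, C14, C15, C10 and C9, each overlapped a PPARγ peak. The share of 36.2% covers peaks of all scores. That for peaks of like score was not computed, so whether this is particular to the window was not tested.

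**Figure D1:**
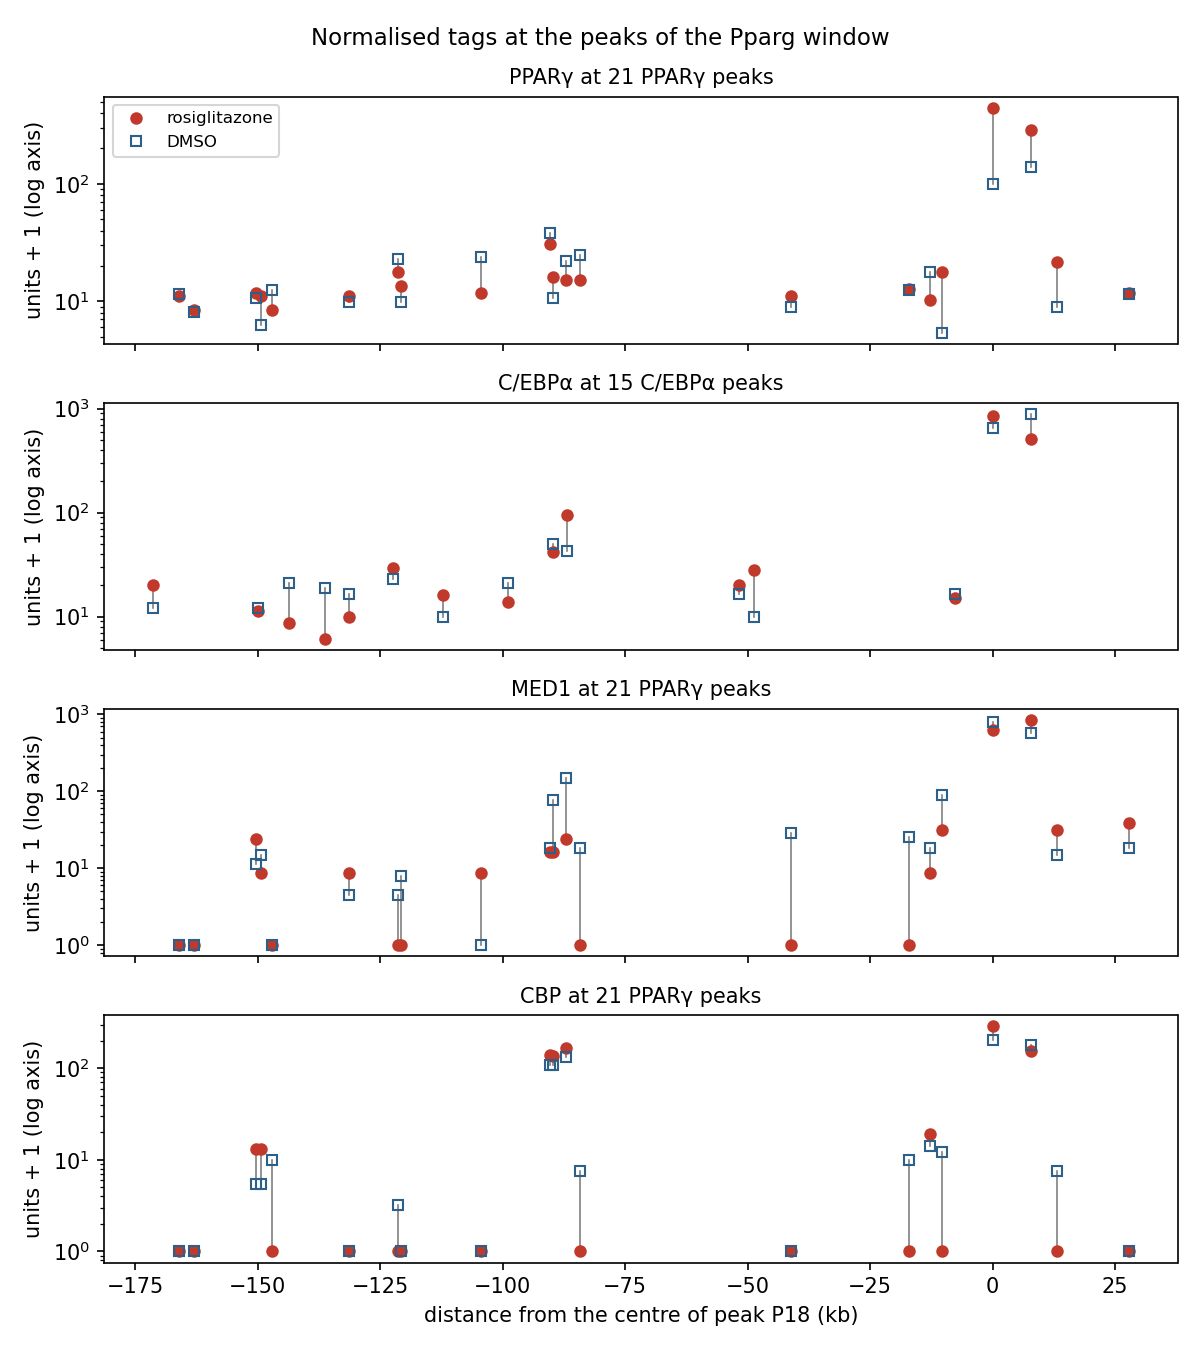
Normalised tags (deposited units + 1, log axis) at each peak of the window against the distance of its centre from P18 in kb, with rosiglitazone as filled circles and DMSO as open squares joined by a line, 1 value per treatment. The pair at 0 and 7.86 kb stands above the other peaks in PPARγ, C/EBPα and MED1. At P11 and P12, near -90 kb, MED1 is lower with rosiglitazone, from 2 and 3 tags there, while CBP is not lower.

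The pair P18 and P19 held most of the C/EBPα and MED1 measured at the 21 PPARγ peaks, and most of the PPARγ in rosiglitazone. P18 lies at chr6:115461540-115461726 and P19 at chr6:115469401-115469587, 7.86 kb apart between centres. By the authors' score P18 ranked 19 of 30588 PPARγ peaks and P19 ranked 46. Together they held 74.6% of the PPARγ units of the 21 peaks in rosiglitazone and 48.1% in DMSO. For C/EBPα these shares were 89.0% and 90.4%, for MED1 87.7% and 73.6%, and for CBP 47.7% and 48.0%.

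P18 had 443 units of PPARγ in rosiglitazone, against 99.4 in DMSO, from 533 and 113 tags. Its ratio was 4.46 (3.63 to 5.51). The PPARγ peaks outside the 21 had a summed ratio of 1.53, and the ratio of P18 was 2.92 times that of the rest of the list (2.38 to 3.62). P18 ranked 9 in the PPARγ list by PPARγ in rosiglitazone and 145 in DMSO. Among the 101 PPARγ peaks with a score rank of 100 or better, ties kept, 6 had a log2 PPARγ ratio as high as that of P18, itself included.

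P19 had 284 units of PPARγ in rosiglitazone and 139 in DMSO, a ratio of 2.05 (1.69 to 2.49), from 342 and 158 tags. This ratio was 1.34 times that of the rest of the list (1.11 to 1.63). P19 was the higher of the pair in DMSO and the lower in rosiglitazone. The PPARγ ratio of P18 was 2.18 times that of P19, with an exact interval of 1.64 to 2.90. Among the same 101 peaks, 48 had a log2 ratio at or above that of P19.

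C/EBPα was higher with rosiglitazone at P18 and lower at P19. P18 had 773 units of C/EBPα in rosiglitazone and 583 in DMSO, a ratio of 1.33 (1.15 to 1.54). P19 had 438 units in rosiglitazone and 795 in DMSO, a ratio of 0.551 (0.474 to 0.641). The ratio at P18 was 2.41 times that at P19 (1.95 to 2.97). In the PPARγ list P18 ranked 2 by C/EBPα in rosiglitazone and 7 in DMSO, and P19 ranked 6 and 2. The C/EBPα peaks at the same places gave like values. C14, at chr6:115461491-115461721 with rank 7 of 30519 by score, had 843 units in rosiglitazone and 647 in DMSO, a ratio of 1.30 (1.13 to 1.50). C15, at chr6:115469402-115469632 with rank 9, had 511 and 888 units, a ratio of 0.575 (0.4998 to 0.662).

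MED1 at the pair was among the highest of the PPARγ list already without added rosiglitazone. P18 had 627 units of MED1 in rosiglitazone and 786 in DMSO, from 82 and 225 tags. Its DMSO value ranked 1 of 30588 and its rosiglitazone value 26, and its ratio was 0.798 (0.612 to 1.03). P19 had 842 units in rosiglitazone and 580 in DMSO, with ranks 17 and 3 and a ratio of 1.45 (1.13 to 1.86). The rest of the list had a summed MED1 ratio of 1.63, and the ratio of P18 was 0.490 times that (0.376 to 0.634). That of P19 was 0.892 times it (0.695 to 1.14), an interval that includes 1. The MED1 ratio of P18 was 0.550 times that of P19 (0.382 to 0.792), so the peak with the larger PPARγ ratio had the smaller MED1 ratio. Read at C14 and C15, the same contrast was 0.709 (0.505 to 0.995). MED1 in C15 was 842 units in rosiglitazone and 692 in DMSO, a ratio of 1.22 (0.955 to 1.54). The higher MED1 at this site thus passed counting error in the P19 window and not in the C15 window.

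P18 had 285 units of CBP in rosiglitazone and 203 in DMSO, a ratio of 1.40 (0.965 to 2.01), with ranks 12 and 11 in the PPARγ list. P19 had 152 and 177 units, a ratio of 0.857 (0.524 to 1.36), with ranks 159 and 16. Both intervals include 1, and that of the contrast between them did too, at 1.63 (0.893 to 3.03). Against the rest of the list, the CBP ratio of P19 was 0.621 times as large (0.380 to 0.984). Read in C15, which overlaps P19, it was 0.772 times that of the rest of the C/EBPα list (0.513 to 1.14), an interval that includes 1.

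A second concentration of binding lay about 90 kb before the pair, at P10, P11, P12 and P13 with C9 and C10, from 115371099 to 115377429. Here CBP was high, PPARγ was modest, and summed MED1 was lower with rosiglitazone. The lower MED1 was not particular to this group, since P15 to P17, described below, had it too. Peaks were grouped where neighbours lay within 5 kb, a step chosen after the values had been seen. P10, at chr6:115371099-115371285, had 29.9 units of PPARγ in rosiglitazone and 36.9 in DMSO, a ratio of 0.810 (0.504 to 1.30). P11, at chr6:115371853-115372039, had 15.0 and 9.67 units. P12, at chr6:115374499-115374685, had 14.1 and 21.1, and P13, at chr6:115377243-115377429, had 14.1 and 23.7. PPARγ was thus lower with rosiglitazone at P10, P12 and P13 and higher at P11, each with an interval that includes 1. Summed over the 4 peaks, PPARγ was 73.2 units in rosiglitazone and 91.4 in DMSO, a ratio of 0.80 (0.595 to 1.07), or 0.524 times that of the rest of the list (0.390 to 0.703).

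MED1 was lower with rosiglitazone beyond counting error at P11 and P12, and the values at P10 and P13 did not pass it. P12 had 23.0 units of MED1 in rosiglitazone and 150 in DMSO, from 3 and 43 tags. In DMSO this ranked 171 of 30588, and in rosiglitazone 9267. Its ratio was 0.153 (0.0303 to 0.477). P11 had 15.3 units in rosiglitazone and 76.9 in DMSO, from 2 and 22 tags, a ratio of 0.199 (0.0227 to 0.810). Read in C9, which overlaps P11, MED1 was 38.3 units in rosiglitazone and 97.8 in DMSO, a ratio of 0.391 (0.118 to 1.03) that did not pass counting error. P13 had 0 tags in rosiglitazone, which allows up to 23.0 units, and 17.5 units in DMSO, and the interval of its ratio reached 2.39. P10 had 15.3 and 17.5 units from 2 and 5 tags, a ratio of 0.876 (0.0834 to 5.35). The intervals of P10 and P13 include both 1 and the 1.63 of the rest of the list. The 4 peaks summed to 53.6 units in rosiglitazone and 262 in DMSO, a ratio of 0.204 (0.0795 to 0.442), which is 0.126 times the ratio of the rest of the list (0.0488 to 0.272).

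CBP at P10, P11 and P12 was among the highest of the list in both treatments. P10 had 139 units of CBP in rosiglitazone and 108 in DMSO. P11 had 133 and 106 units, and P12 had 164 and 130. These values ranked 209, 243 and 119 in rosiglitazone, and 150, 159 and 71 in DMSO. P13 had 0 and 6.63 units. Over the 4 peaks the CBP ratio was 1.24 (0.927 to 1.65), so the interval includes both 1 and the 1.38 of the rest of the list.

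C10, which overlaps P12, ranked 1336 by score in the C/EBPα list, and P12 ranked 6853 in the PPARγ list. C10, at chr6:115374555-115374785, had 94.2 units in rosiglitazone and 42.0 in DMSO, a ratio of 2.25 (1.34 to 3.94). C9, at chr6:115371789-115372019, had 40.8 and 48.6 units, a ratio of 0.839 (0.473 to 1.52). At C10 PPARγ was 10.8 units in rosiglitazone and 23.7 in DMSO, a ratio of 0.455 (0.216 to 0.913). MED1 there was 15.3 units in rosiglitazone and 133 in DMSO, a ratio of 0.115 (0.0135 to 0.446). Read in P12, the same site had 51.0 units of C/EBPα in rosiglitazone and 33.1 in DMSO, a ratio of 1.54 (0.831 to 3.00). PPARγ in P12 had a ratio of 0.670 (0.338 to 1.30). The differences in C/EBPα and PPARγ at this site thus passed counting error in the C10 window and not in the P12 window, and that in MED1 passed it in both. The MED1 libraries differ in depth, and the part of depth, background and culture in these differences was not tested.

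**Figure D2:**
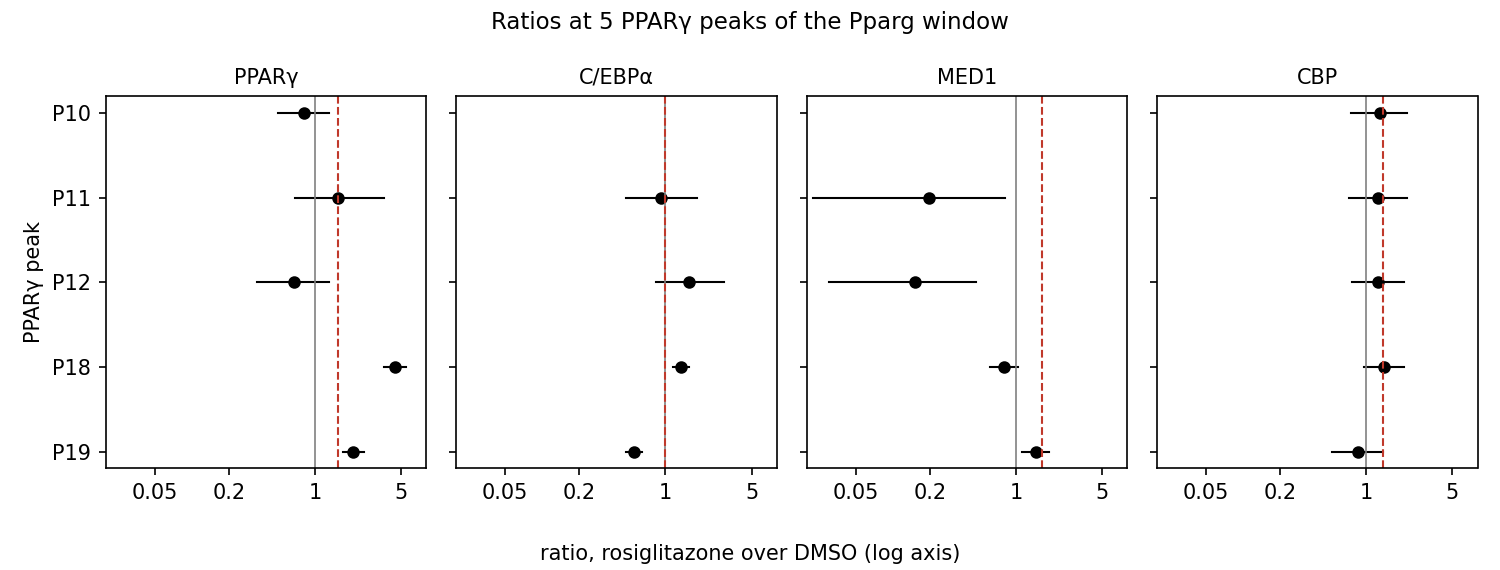
Ratio of rosiglitazone to DMSO (log axis) for each factor at P10, P11, P12, P18 and P19, with exact 95% intervals of the tags, for peaks with at least 20 tags of that factor. The grey line is 1 and the dashed line the ratio of all PPARγ peaks outside the window. PPARγ at P18 and P19 lies to the right of both, and MED1 at P11 and P12 to the left. P11 and P12 reached the minimum of 20 MED1 tags through DMSO, so their place is a description only. P10 fell below that minimum and has no MED1 value here.

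The remaining PPARγ peaks were low. Before the group near -90 kb, P1 to P9 had between 7.48 and 16.6 units of PPARγ in rosiglitazone and between 5.28 and 22.9 in DMSO. Of these, P7 and P9 had the highest scores. P7, at chr6:115340092-115340278, had 16.6 units in rosiglitazone and 22.0 in DMSO, a ratio of 0.756 (0.398 to 1.42). P9, at chr6:115357021-115357207, had 10.8 and 22.9 units, a ratio of 0.473 (0.223 to 0.954). P9 was the one member whose log2 ratio, with a pseudocount of 1 unit, reached a 2-fold lower value. MED1 and CBP at P1 to P9 did not exceed 23.0 units in either treatment.

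After that group, P14 to P17 led up to the pair. P16, at chr6:115448678-115448864, had 9.15 units of PPARγ in rosiglitazone and 16.7 in DMSO, a ratio of 0.547 (0.235 to 1.21). P17, at chr6:115451237-115451423, had 16.6 units in rosiglitazone and 4.40 in DMSO, a ratio of 3.78 (1.38 to 12.9), from 20 and 5 tags. MED1 at P17 was 30.6 units in rosiglitazone and 87.4 in DMSO, a ratio of 0.350 (0.0886 to 1.01), from 4 and 25 tags. P17 therefore had more PPARγ with rosiglitazone and a MED1 value that was lower, just within counting error. Summed over P15 to P17, MED1 was 38.3 units in rosiglitazone and 129 in DMSO, from 5 and 37 tags, mostly those of P17. That ratio, 0.296 (0.0908 to 0.755), passed counting error and was 0.182 times that of the rest of the list (0.0558 to 0.464). P14 had 0 MED1 tags in rosiglitazone and 8 in DMSO, and the interval of its ratio reached 1.28. P20, at chr6:115474720-115474906 beyond the pair, had 20.8 units of PPARγ in rosiglitazone and 7.91 in DMSO, a ratio of 2.63 (1.19 to 6.39). P14, P15 and P21 had between 9.98 and 11.6 units of PPARγ in rosiglitazone and between 7.91 and 11.4 in DMSO.

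**Figure D3:**
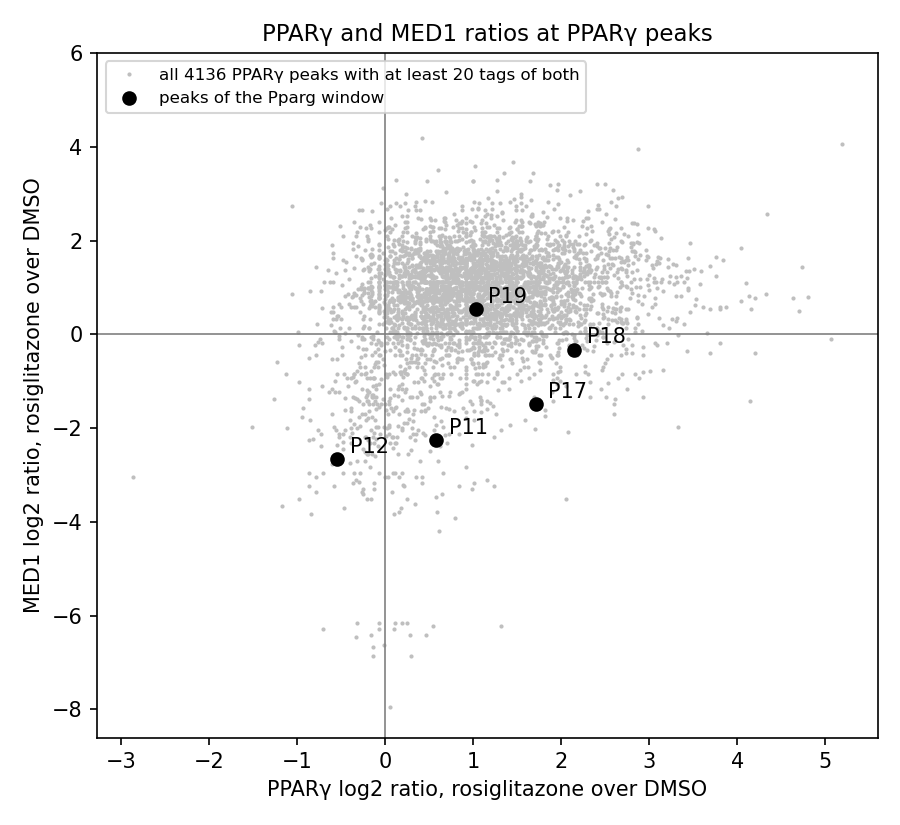
Log2 ratios of PPARγ (horizontal) and MED1 (vertical), rosiglitazone over DMSO with a pseudocount of 1 unit, at the 4136 PPARγ peaks with at least 20 tags of both (grey) and the 5 of them in the window (black). P11, P12, P17 and P18 lie below 0 for MED1 and P19 above it, and P17, P18 and P19 lie to the right of 1 for PPARγ.

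Counted over the 21 peaks, 4 were at least 2-fold higher in PPARγ with rosiglitazone, P17, P18, P19 and P20, where 30% of the whole list was. At least 2-fold lower was 1 of 21, against 4.43% of the list. All 4 higher peaks lie in the last 40 kb of the window. P21 lies there too, with a ratio of 1.02 (0.431 to 2.46), and whether this placing is unusual was not tested. The median log2 PPARγ ratio was 0.08 over the members and 0.50 over the list. Without P18 and P19, PPARγ over the other 19 peaks summed to 248 units in rosiglitazone and 257 in DMSO, a ratio of 0.965 (0.818 to 1.14), against 1.53 outside the window. With them the sums were 975 and 495 units, a ratio of 1.97 (1.78 to 2.18).

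In MED1, 9 of the 21 peaks were lower by 2-fold or more and 4 higher by as much, where 22.5% and 29.8% of the list were. Most of the 9 rest on fewer than 10 tags. Of the 4 higher, P3, P20 and P21 had equal tags in both treatments, 3, 4 and 5 in each. Their ratio of 2.19 arises because 1 tag is worth more units in rosiglitazone. P9 had 1 tag in rosiglitazone and 0 in DMSO. All 4 intervals include 1, so these peaks show no rise in MED1. In the plot of PPARγ against MED1 ratios, P11, P12 and P17 reached the minimum of 20 MED1 tags through DMSO, with 2, 3 and 4 tags in rosiglitazone and 22, 43 and 25 in DMSO. Their place there is therefore a description only. Summed over the 21 peaks MED1 was 1676 units in rosiglitazone and 1856 in DMSO, a ratio of 0.903 (0.768 to 1.06). That is 0.555 times the ratio of the rest of the list (0.472 to 0.650). Without P18 and P19 the ratio was 0.422 (0.269 to 0.641).

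CBP was at least 2-fold higher at 2 of the 21 peaks and lower at 6, against 23.6% and 25.1% of the list, and none of these 8 had 20 tags. The sums were 916 units in rosiglitazone and 791 in DMSO, a ratio of 1.16 (0.95 to 1.40), against 1.38 for the rest of the list. CBP was at 0 tags in both treatments at 7 of the 21 peaks. At least 20 CBP tags were held by 5 of the 21 peaks, and by 3419 of the 30588 in the list.

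The C/EBPα peaks away from both concentrations were low. C1 had 19.1 units in rosiglitazone and 11.04 in DMSO, C2 had 10.2 and 11.04, C3 had 7.64 and 19.9, and C4 had 5.09 and 17.7. C5 had 8.92 and 15.5 units, C6 had 28.0 and 22.1, C7 had 15.3 and 8.83, and C8 had 12.7 and 19.9. Nearer to the pair, C11 had 19.1 and 15.5 units, C12 had 26.8 and 8.83, and C13 had 14.0 and 15.5. Of these, the ratio of C12, 3.03, had an interval above 1 (1.02 to 12.1), from 21 and 4 tags. C12 was picked out by this interval, which makes no allowance for the choice among these peaks, so it is a description only. C12 also had 7.65 units of MED1 in rosiglitazone and 52.4 in DMSO, from 1 and 15 tags, a ratio of 0.146 (0.00347 to 0.949).

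Of the 15 C/EBPα peaks, 2 were at least 2-fold higher, C10 and C12, against 15.9% of the list. Another 2 were at least 2-fold lower, C3 and C4, against 9.25%. Over all 15 peaks C/EBPα summed to 1656 units in rosiglitazone and 1791 in DMSO, a ratio of 0.925 (0.846 to 1.01), and C14 and C15 held 81.8% and 85.7% of it. PPARγ read in the same 15 windows had a ratio of 2.62 (2.32 to 2.96), against 1.58 in the rest of the C/EBPα list. C14 and C15 held 92.5% of this PPARγ in rosiglitazone and 78.3% in DMSO, and over the other 13 peaks the ratio was 0.910 (0.657 to 1.26).

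The nearest PPARγ peak inside the end of the window was P21, with 10.8 units of PPARγ in rosiglitazone and 10.6 in DMSO. The nearest beyond it lay 4.63 kb outside and had 24.9 units in rosiglitazone and 5.28 in DMSO. At the other end P1 had 9.98 and 10.6 units, and the nearest peak before the window, 12.5 kb outside, had 15.8 and 11.4. For C/EBPα, a peak 1.72 kb past the end had 17.8 and 17.7 units.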

How the data were processed

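ChIP-seq of PPARγ, C/EBPα, MED1 and CBP was analysed from 2 peak lists. The build mm9 and the tools Bowtie, HOMER, FastQC and edgeR are named per the submitters' processing notes. Their versions and settings, and any pooling of replicates, were not given in the sources used. The lists hold, as deposited by the authors, a normalised tag signal in 8 columns, a score per peak and a fraction per peak, of which the fraction entered no result. For MED1 the treated column carries the heading BRL, taken as rosiglitazone. The PPARγ columns carry no replicate number, although the labels give 2 samples per treatment.

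Signal divided by the column's step gave whole tags within 0.05 steps for 99.996% to 100% of the values. A count model needs replicates and was not run. Ratios and exact intervals were computed from tags with scipy 1.17.1 in Python 3.11.15, after a test on simulated data. Against the rest of a list, its own counting error was taken as negligible. Fold counts used log2(units + 1). Overlap meant at least 1 bp in common. C/EBPα peaks were all named, and of the PPARγ peaks the 10 highest scores and the 3 highest and 3 lowest PPARγ ratios with at least 20 tags, while the other PPARγ peaks named were chosen after their values were seen. Members and lists were chosen with earlier results of these data known. Promoters are RefSeq, GRCm38.p6, with 3 matched to Pparg.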

Additional observations from a re-analysis of the deposited data

How the results depend on the processing

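Of 126 alternative values, 101 kept within the interval, spread or 1.5-fold limit of the reported value. For the shares of overlapping peaks the limit was a binomial interval that treats peaks as independent, which neighbouring peaks are not. Of these 101, 52 were changes of pseudocount at single peaks. None of that kind left its counting interval, so they say little about stability. Among all other alternatives 49 kept within the limit, 23 moved past it and 2 reversed direction. The PPARγ ratio of the window, 1.97, rests on the pair: it was 1.34 without P18, 0.965 without P18 and P19, 0.842 with the window narrowed by 40 kb at each end, which removes the pair, and 1.29 when divided by the ratio of the rest of the list. The C/EBPα ratio of 0.925 became 0.710 without C14, 1.18 without C14 and C15 and 1.17 in the narrowed window. The MED1 ratio of 0.903 became 0.422 without the pair, 0.289 in the narrowed window and 0.555 when divided by that of the rest, and CBP became 0.839 when divided by that of the rest. The MED1 ratio of P10 to P13, 0.204, was 0.274 without P12 and 0.232 when read in C9 and C10; these 2 and the values without the pair were added after the data had been seen. At or above the median score of the list there were 10 PPARγ and 9 C/EBPα peaks, and the window widened by 100 kb at each end held 34 PPARγ peaks.

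Fold counts of single peaks were less stable. Shares of the whole list were not computed under the settings that follow, so whether these counts are unusual was not tested. Centred on the median of the list, PPARγ was higher at 2 peaks and lower at 5. A pseudocount of 5 left 0 peaks lower in PPARγ, 1 higher in MED1, 0 higher in CBP and 1 lower in C/EBPα. Asking for at least 20 tags left 0 higher and 3 lower in MED1, where the 3 passed through their DMSO tags and the count supports nothing, 0 higher and 0 lower in CBP, and 0 lower in C/EBPα. The cause of these shifts was not tested beyond what each change removes by construction. No paired analysis was possible because the columns carry no replicate numbers, and no replicate could be left out for the same reason. MED1 and CBP depth limits single peaks, since 1 tag in rosiglitazone is worth 7.65 and 6.06 units.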

Other observations

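A PPARγ peak 39.8 kb before the window, at chr6:115220111-115220297, had 16.6 units of PPARγ in rosiglitazone and 2.64 in DMSO. It held 91.8 and 66.4 units of MED1 and 60.6 and 86.2 units of CBP, while most PPARγ peaks inside the window held less of both.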
